A study of Mus musculus with 16 samples.

Results

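Cytotoxic granule genes were followed across antibody-defined cells of the mouse spleen. The 5 genes were Gzma, Gzmb, Gzmk, Prf1 and Nkg7, chosen by name as the transcripts of granule proteins of killer lymphocytes, and all 5 were among the 11713 genes in the deposited table. They were read in natural killer (NK) cells, in CD8 and CD4 T cells divided by the CD44 antibody, and in the other antibody gates.

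Killer lymphocytes store a lethal cargo in secretory granules and release it at the contact with a target cell. Perforin, the product of Prf1, forms pores in the target membrane. Granzymes are serine proteases that enter through those pores. Granzyme A (Gzma) and granzyme K (Gzmk) cut after basic residues, while granzyme B (Gzmb) cuts after aspartate and activates caspases. Nkg7 encodes a membrane protein of the granule that takes part in its release in mice. Resting mouse NK cells are known to hold granzyme transcripts ahead of activation, while T cells acquire them mainly after meeting antigen.

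The cells came from spleens of untreated female BALB/cJ mice aged 9 months, processed as 2 sources named Main1 and Main2. The method was CITE-seq, which counts polyadenylated RNA and DNA-tagged antibodies in the same droplet. The series text speaks of a pair of spleens, the labels name no individual animals, and the 16 samples form 4 groups of 4. The tables mark a droplet only by a prefix taken here for its source, and each source entered the tests as a single library. P-values therefore rest on only these libraries, whose spread may be technical, and on a spread estimated mostly or wholly over other genes. Spleen suspensions had been passed through a 40 um strainer and red cells lysed. Main1 held 3179 droplets with 7964712 unique molecular identifiers (UMIs, counted RNA molecules) and a median of 1789 per droplet, and Main2 held 3918 droplets with 10174799 UMIs and a median of 1778. Levels are given as CPM, the UMIs of a gene per 1000000 UMIs of the gate, with exact Poisson intervals for sums and exact Clopper-Pearson intervals for shares. All intervals are at 95% and cover counting error only.

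Gates were drawn on antibody counts alone. The NK gate took droplets with at least 5 NKp46 antibody counts that were negative for CD3, B-lineage antigens, Ly6G and F4/80, and held 46 droplets in Main1 and 65 in Main2, or 1.56% of all 7097 droplets (1.29 to 1.88). The CD8 gate held 14 droplets in Main1 and 38 in Main2, the CD4 gate 145 and 149, and the B gate 2442 and 3096. The NK, CD8, CD4 and B gates held the markers of their names. Of the NK droplets 104 of 111 had a UMI of Ncr1, which encodes NKp46, and all 10 NK markers in the table were detected there, at a summed 11716 CPM in Main1 and 11550.4 CPM in Main2. In the NK gate 7 of 8 T-cell markers had UMIs, at a summed 1083 and 1381 CPM against 6118 and 5595 CPM in the CD8 gate, and the 6 macrophage markers were all at 0. The CD8 gate had Cd8a and Cd8b1 at a summed 1710.4 and 1716 CPM, with Ncr1, Klrb1c and Klre1 at 0 and the NK list at a summed 680 and 916 CPM. The CD4 gate had the T-cell markers at a summed 7507 and 8308 CPM, Cd4 and Cd40lg at 227 and 242 CPM, and regulatory T-cell markers at 696 and 591 CPM. The B gate had the B-cell markers at 7693 and 7732 CPM. It also had plasma-cell markers at 28192 and 35807.5 CPM, of which Igkc alone made 24563 and 31443.8 CPM. The gates called monocyte (CD11b and Ly6C) and macrophage (F4/80) after their antibodies held more RNA of other types than of their names. Plasma-cell markers summed to 124375 and 87886 CPM in the monocyte gate, beside 16102 and 12362 CPM of monocyte markers. The macrophage gate had 19908 and 21803 CPM of monocyte and 2003 and 1508 CPM of macrophage markers. The dendritic gate had 2548 and 2588 CPM of plasmacytoid dendritic markers, beside 544 and 714 CPM of dendritic markers. The T gate negative for CD4 and CD8a had 3676 and 4336 CPM of T-cell markers. It also had 239890 CPM of erythroid markers in Main1 and 19217 CPM of neutrophil markers in Main2. Erythroid markers were uneven between the libraries. They summed to 22506 CPM in Main1 and 509 CPM in Main2 in the NK gate and to 7107 and 217 CPM in the CD4 gate, and their part in the results was not tested. The libraries shared 14 droplet barcodes.

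The genes lie at separate places in the genome, except that Gzma and Gzmk are neighbours on chromosome 13. By the GENCODE vM21 annotation of GRCm38 (mm10), Gzma spans chr13:113093825-113100981 and Gzmk chr13:113171608-113225908, both on the minus strand. Gzmb spans chr14:56258838-56262260 on the minus strand, Prf1 chr10:61297833-61304680 on the plus strand and Nkg7 chr7:43437073-43438249 on the plus strand. The promoters are shown because all 5 genes were highest in the same gate. Each is 300 bases of RefSeq sequence on GRCm38.p6, read 5′ to 3′ along the gene. Capitals mark letters that match 3 short motifs of factors active in killer lymphocytes. They are a T-box core (GTGTGA or TCACAC), a RUNX core (TGTGGT or ACCACA) and an ETS core (GGAAGT or ACTTCC), searched on both strands, and no matches overlapped.
Gzma promoter (chr13:113100932-113101231, minus strand): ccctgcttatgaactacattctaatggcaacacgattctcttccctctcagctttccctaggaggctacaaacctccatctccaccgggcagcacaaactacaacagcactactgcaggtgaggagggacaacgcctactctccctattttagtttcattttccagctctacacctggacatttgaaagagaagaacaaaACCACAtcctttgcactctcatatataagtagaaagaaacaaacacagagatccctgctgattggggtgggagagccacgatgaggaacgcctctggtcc
Gzmb promoter (chr14:56262285-56262584, minus strand): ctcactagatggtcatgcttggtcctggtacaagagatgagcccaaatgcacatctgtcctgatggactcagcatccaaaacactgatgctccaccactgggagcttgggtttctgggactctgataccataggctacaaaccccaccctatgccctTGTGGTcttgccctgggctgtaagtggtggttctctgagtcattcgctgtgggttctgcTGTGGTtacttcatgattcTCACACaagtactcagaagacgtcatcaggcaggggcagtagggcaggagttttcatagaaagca
Gzmk promoter (chr13:113180916-113181215, minus strand): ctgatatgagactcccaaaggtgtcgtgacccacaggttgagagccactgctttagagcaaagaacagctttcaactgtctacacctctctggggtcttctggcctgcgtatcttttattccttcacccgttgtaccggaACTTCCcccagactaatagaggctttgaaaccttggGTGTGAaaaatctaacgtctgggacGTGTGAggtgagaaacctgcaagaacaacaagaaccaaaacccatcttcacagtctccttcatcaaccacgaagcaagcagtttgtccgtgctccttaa
Prf1 promoter (chr10:61297586-61297885, plus strand): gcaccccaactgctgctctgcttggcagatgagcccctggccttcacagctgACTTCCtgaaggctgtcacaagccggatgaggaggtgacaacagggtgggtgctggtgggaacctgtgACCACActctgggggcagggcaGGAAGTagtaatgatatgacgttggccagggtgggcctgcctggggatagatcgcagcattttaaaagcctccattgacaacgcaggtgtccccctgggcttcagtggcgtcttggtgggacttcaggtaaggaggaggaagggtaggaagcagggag
Nkg7 promoter (chr7:43436888-43437187, plus strand): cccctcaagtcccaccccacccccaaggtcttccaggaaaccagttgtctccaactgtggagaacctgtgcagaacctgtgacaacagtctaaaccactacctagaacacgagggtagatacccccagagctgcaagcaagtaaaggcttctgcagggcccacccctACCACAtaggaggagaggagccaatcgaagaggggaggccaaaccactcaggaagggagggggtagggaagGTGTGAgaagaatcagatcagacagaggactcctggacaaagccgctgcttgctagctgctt

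The positions are counted from the RefSeq start of each gene, which is chr13:113100981 for Gzma, chr14:56262334 for Gzmb, chr13:113180965 for Gzmk, chr10:61297836 for Prf1 and chr7:43437138 for Nkg7. Those starts differ from the GENCODE gene starts by 0, 74, 44943, 3 and 65 bases in that order, so the Gzmk promoter shown lies inside the longer GENCODE gene. The Gzmb promoter held a T-box match 15 bases before its RefSeq start and RUNX matches 34 and 93 bases before it. The Nkg7 promoter held a T-box match 12 bases and a RUNX match 83 bases before the start, and the Gzma promoter a RUNX match 50 bases before it. The Gzmk promoter held T-box matches 49 and 74 bases and an ETS match 110 bases before the start. The Prf1 promoter held ETS matches 108 and 198 bases and a RUNX match 130 bases before it. Of the 32851 promoters of this length in the same set, 14.5% held the T-box letters, 16.8% the RUNX letters and 23.8% the ETS letters. At least 1 of the 3 motifs was found in 45.2% of promoters and at least 2 of them in 9.08%. A match is a run of letters and no measured binding site.

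The NK gate, with 1.56% of droplets, held most Gzma and Gzmb UMIs of the libraries and a smaller share of the other genes. It held 55.9% of all Gzma UMIs, 52.7% of Gzmb, 37.5% of Prf1, 29.2% of Gzmk and 25.7% of Nkg7 UMIs of the 2 libraries. Gzma stood at 11012 CPM in Main1 (844 UMIs, 10281 to 11780) and 11978 CPM in Main2 (1483 UMIs, 11377 to 12604). Nkg7 stood at 4893 CPM in Main1 (375 UMIs) and 4410.2 CPM in Main2 (546 UMIs). The libraries were close to each other for both genes. Gzmb, the caspase-activating granzyme, reached 652 CPM in Main1 (484 to 860.1) and 533 CPM in Main2 (412 to 678). Prf1, the pore former, was at 91.3 and 88.8 CPM from 7 and 11 UMIs. Gzmk was at 65.2 and 113 CPM from 5 and 14 UMIs, with 3 of the 5 and 7 of the 14 in a single droplet. The counts of Prf1 and Gzmk were thus small in both libraries, and their intervals were wide (36.7 to 188 CPM for Prf1 and 21.2 to 152 CPM for Gzmk in Main1).

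**Figure D1:**
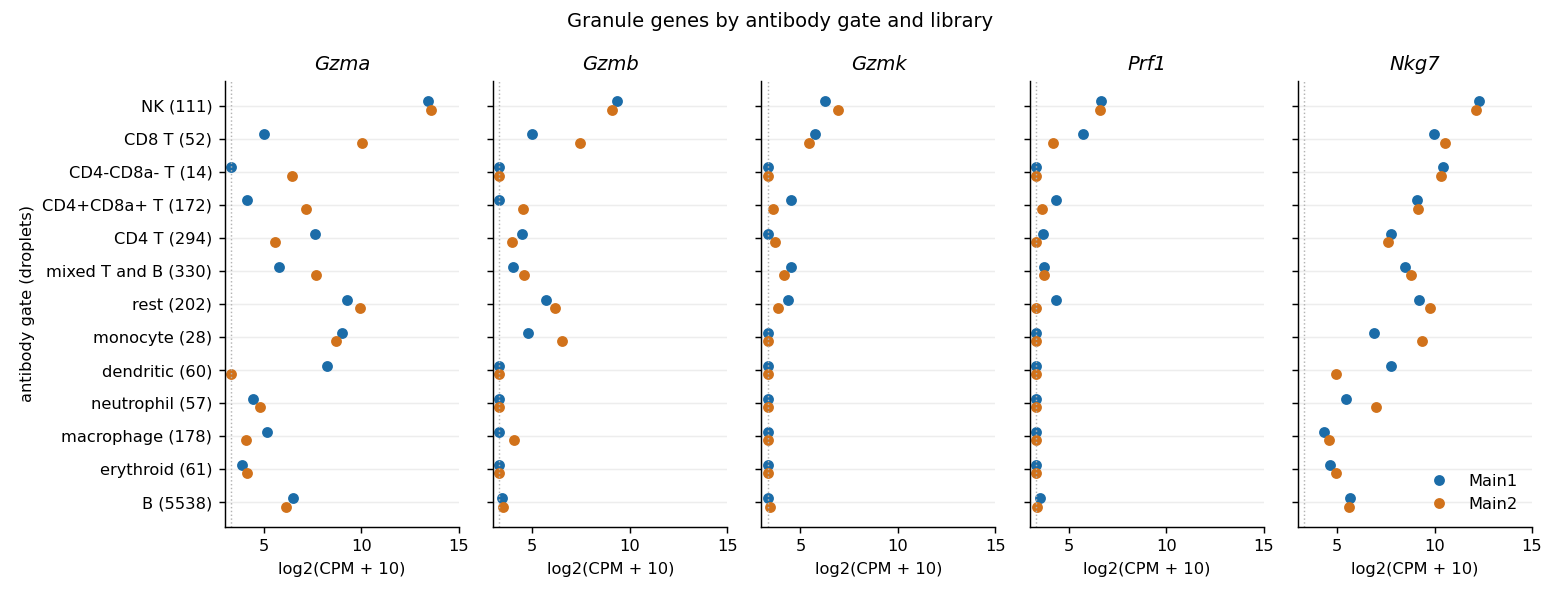
Level of each gene as log2(CPM + 10) in the 13 antibody gates, with the number of droplets of both libraries behind each gate name and a point for each library. The dotted line marks 0 UMIs. The NK gate is the highest gate for every gene in both libraries, and the libraries lie apart for Gzma in the CD8 and dendritic gates.

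Gzma split the NK gate into droplets with much and droplets with none. Per droplet, Gzma ran from 0 UMIs through a median of 21 to 39 in Main1, and from 0 through 27 to 60 in Main2. Over both libraries 79 of the 111 NK droplets held 10 or more Gzma UMIs, 8 held 1 to 9, and 24 held 0. Nkg7 ran from 0 through a median of 7 to 20 UMIs in Main1 and from 0 through 8 to 23 in Main2. It was graded rather than split, with 8 droplets at 0. Gzmb reached at most 6 UMIs per droplet in Main1 and 8 in Main2, and Prf1 at most 1 and 2, so at this depth a droplet without them cannot be told from a droplet with little of them.

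In NK droplets, those with Gzmb, Gzmk or Prf1 lay within those with Gzma, and those with Gzma within those with Nkg7. All 48 droplets with Gzmb, all 8 with Gzmk and all 17 with Prf1 also held Gzma and Nkg7, and all 87 droplets with Gzma held Nkg7. Of the 24 droplets without Gzma, 16 held Nkg7 and 0 held Gzmb, Gzmk or Prf1. Prf1 was found beside Gzmb in 12 of its 17 droplets, and in 5 of the 63 droplets without Gzmb. For Gzmk, 3 of its 8 droplets held Gzmb, against 45 of the 103 droplets without Gzmk. In all, 42 NK droplets held 3 of the 5 genes, 14 held 4 and 1 held 5.

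The 24 NK droplets without Gzma, a class chosen after the values were seen, differed from the rest in other counts too. They held 18 droplets with Ncr1, against 79 of 79 among droplets with 10 or more Gzma UMIs. Their median depth was 1746.5 UMIs, against 1476 in the droplets with 10 or more. Nkg7 was at 1459 CPM in the droplets without Gzma and 5715 CPM in those with 10 or more. Il7r, the interleukin-7 receptor chain, was found in 9 of the 24 droplets (534 CPM) and in 1 of the 79 (7.25 CPM). It was read as a marker of other innate lymphocytes, and Cd200r1 and Tnfsf10 of the same list had 0 UMIs in the NK gate. Of the NK markers, Klre1 was in 2 of the 24 and 53 of the 79, Klrd1 in 12 and 72, and Tyrobp in 18 and 75. The chemokine gene Ccl5 was at 7585 CPM in the 24 and 45612 CPM in the 79. Cd3e was found in 1 of the 24 and 4 of the 79, and Fcer1g, a signalling adaptor of NK and myeloid cells, in 21 and 74. The median CD11b antibody count was 5 in Main1 and 6 in Main2 without Gzma, against 73 and 101.5 with 10 or more UMIs. The median CD27 count was 33 in Main1 and 4 in Main2 without Gzma, against 5 and 4 with 10 or more. These are descriptions of droplets, with no test. Whether all 24 were NK cells, and their part in the CD11b and CD27 comparisons below, was not tested.

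CD11b and CD27 mark the maturation of mouse NK cells, in which CD27 comes first and CD11b is gained. NK droplets were divided at the median of each antibody. Gzma stood at 17541 CPM in Main1 and 17075 CPM in Main2 in CD11b-high droplets, against 7121 and 6604 CPM in CD11b-low droplets. Gzmb stood at 1223 and 834 CPM in CD11b-high droplets, against 312 and 216 CPM in CD11b-low droplets. Nkg7 stood at 6918 and 5634 CPM in CD11b-high droplets, against 3686 and 3119.7 CPM in CD11b-low droplets. Both CD11b-high values were above both CD11b-low values for each of the 3 genes. All 3 rose in edgeR's quasi-likelihood test with Benjamini-Hochberg adjustment: Gzmb by 1.94 on the log2 scale (SE 0.32, adjusted p 3.36e-07), Gzma by 1.33 (SE 0.26, adjusted p 1.95e-05) and Nkg7 by 0.87 (SE 0.25, adjusted p 0.0211). Of all 1499 genes tested, 1.87% rose. DESeq2 called 1 gene, Gzma, and Gzmb lost its call when the NK gate asked for 10 NKp46 counts (log2 fold 1.12, adjusted p 0.19). Gzma lost its call with no filter on low counts, and Nkg7 lost its call in 6 alternatives.

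Prf1 and Gzmk had under 20 UMIs in the NK gate and were not tested. Prf1 had 5 and 10 UMIs in CD11b-high droplets, against 2 and 1 in CD11b-low droplets, a pooled ratio of 5.88 (1.66 to 31.7). Gzmk had 0 and 6 UMIs in CD11b-high droplets, against 5 and 8 in CD11b-low droplets, a ratio of 0.542 (0.169 to 1.53) that included equality. A UMI of Gzma was found in 54 of the 56 CD11b-high droplets and 33 of the 55 CD11b-low droplets. The depths were a median of 1475 UMIs in CD11b-high and 1660 in CD11b-low droplets, so the CD11b-high class was the shallower of the pair.

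**Figure D2:**
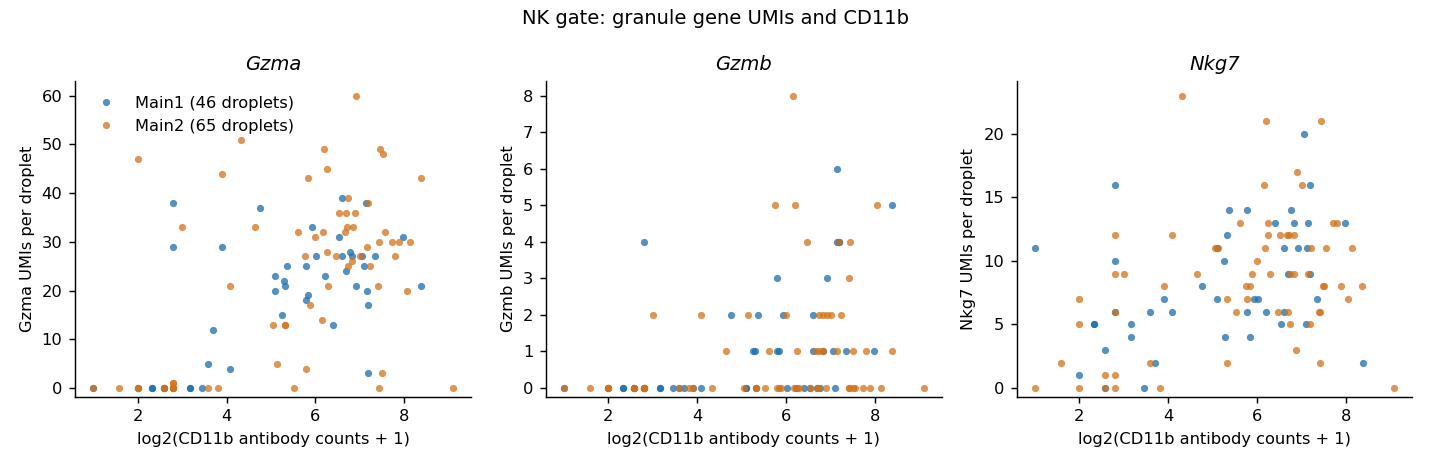
UMIs of Gzma, Gzmb and Nkg7 per NK droplet against the CD11b antibody count on a log2(count + 1) axis, coloured by library, with 46 droplets in Main1 and 65 in Main2. Droplets with 0 Gzma UMIs lie mostly at the low end of CD11b, and 54 of the 56 CD11b-high droplets held Gzma.

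Gzma and Gzmb were lower in CD27-high than in CD27-low droplets, in calls that few alternatives kept. Gzma stood at 7962 and 10318 CPM in CD27-high droplets, against 16648 and 14043 CPM in CD27-low droplets. Gzmb stood at 503 and 379 CPM in CD27-high droplets, against 929 and 725 CPM in CD27-low droplets. Both fell in CD27-high droplets, Gzmb by 0.99 (SE 0.29, adjusted p 0.0337 in edgeR's quasi-likelihood test) and Gzma by 0.83 (SE 0.26, adjusted p 0.0496), where 1.67% of the 1499 genes tested fell. Nkg7 was at 3961 and 4212 CPM in CD27-high droplets, against 6615 and 4657 CPM in CD27-low droplets, a log2 fold of -0.51 that did not pass (adjusted p 0.35). Both calls were lost in the same model without the replicate block for the library (adjusted p 0.12 for Gzma and 0.32 for Gzmb), with library sizes as the only scaling (0.14 and 0.087), and at 3 or 10 NKp46 counts. DESeq2 called 0 genes here, with 10 at an unadjusted p under 0.05.

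The untested genes went apart by CD27. Gzmk had 5 and 12 UMIs in CD27-high droplets, against 0 and 2 in CD27-low droplets, a pooled ratio of 5.90 (1.40 to 52.6). Prf1 had 3 and 2 UMIs in CD27-high droplets, against 4 and 9 in CD27-low droplets, a ratio of 0.267 (0.0745 to 0.797). Of the 17 Gzmk UMIs in CD27-high droplets 41.2% came from 1 droplet.

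With both antibodies read together, Gzma differed by CD11b within either CD27 class. Gzma was at 6626 CPM in the 39 CD27-high CD11b-low droplets and 15910 CPM in the 20 CD27-high CD11b-high droplets. It was at 7547 CPM in the 16 CD27-low CD11b-low droplets and 18002 CPM in the 36 CD27-low CD11b-high droplets. The 4 CD11b-high values by library ran from 15641 to 18567 CPM and the 4 CD11b-low values from 5047 to 12366 CPM. Gzmb was at 262, 842, 246 and 1022 CPM in those classes, and Prf1 was found in 11 of the 36 CD27-low CD11b-high droplets and 2 of the 39 CD27-high CD11b-low droplets. Gzmk was found in 4 of the 39 CD27-high CD11b-low, 3 of the 20 CD27-high CD11b-high, 0 of the 16 CD27-low CD11b-low and 1 of the 36 CD27-low CD11b-high droplets. These classes were not tested.

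With the libraries pooled, the share of droplets with Gzma or Nkg7 was larger at each higher NKp46 count. Among droplets outside the T, B, neutrophil and macrophage gates, Gzma was found in 7.11% of the 197 droplets with 0 NKp46 counts, 10.0% of 80 with 1, 21.1% of 38 with 2, 27.8% of 36 with 3 to 4, 74.0% of 50 with 5 to 9 and 82.0% of 61 with 10 or more. Ncr1 went along with it, in 0.508%, 3.75%, 15.8%, 27.8%, 88.0% and 98.4% of the same droplets. The widest step in both genes lay between 3 to 4 and 5 to 9 counts, where the gate was drawn. Nkg7 was already present in 22.8% of droplets with 0 NKp46 counts. Below the gate neither library alone rose at every step. In Main1, Gzma was in 31.6% of droplets with 2 counts and 27.8% with 3 to 4, and Nkg7 in 47.4% and 44.4%. In Main2, Gzma was in 12.9% with 1 count and 10.5% with 2, and Nkg7 in 38.7% and 26.3%. Gzmb was in 2.03%, 1.25%, 10.5%, 16.7%, 40.0% and 45.9% of the 6 bins. Gzmk was in 0.508%, 1.25%, 5.26%, 0%, 8% and 6.56% of them and Prf1 in 0%, 1.25%, 0%, 2.78%, 12.0% and 18.0%, so neither grew at every step.

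**Figure D3:**
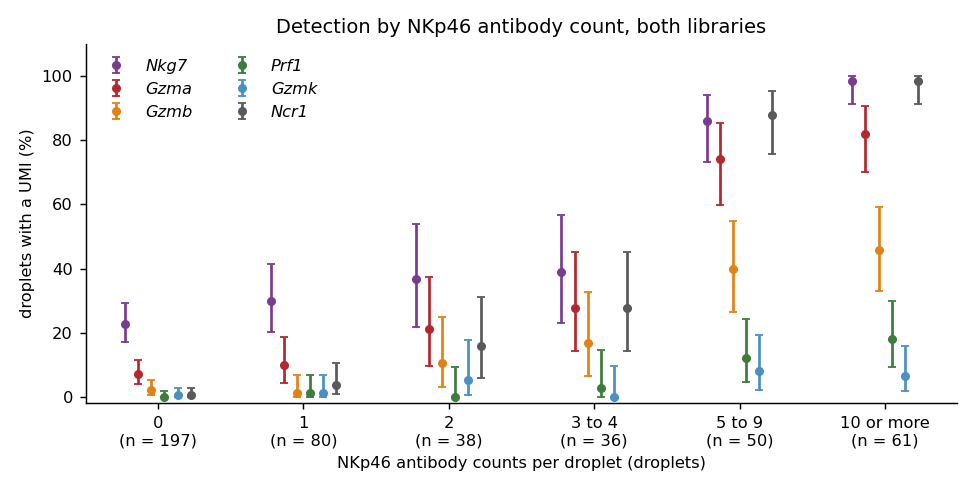
Percent of droplets with a UMI of each granule gene and of Ncr1 by NKp46 antibody count, among droplets outside the T, B, neutrophil and macrophage gates of both libraries, with exact 95% intervals. Nkg7, Gzma, Gzmb and Ncr1 step up between 3 to 4 and 5 to 9 counts, while Gzmk and Prf1 stay below 20%.

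Against CD4 T cells, NK cells had more Gzma, Gzmb and Nkg7. Gzma was at 11012 and 11978 CPM in the NK gate, against 188 and 36.6 CPM in the CD4 gate. Nkg7 was at 4893 and 4410.2 CPM in the NK gate, against 206 and 186 CPM in the CD4 gate. Gzmb was at 652 and 533 CPM in the NK gate, against 12.1 and 5.63 CPM in the CD4 gate. In edgeR's quasi-likelihood test over the NK, CD8 and CD4 gates, Gzma rose by 6.55 on the log2 scale (SE 0.39, adjusted p 4.74e-12), Gzmb by 5.81 (SE 0.44, adjusted p 3.98e-10), and Nkg7 by 4.42 (SE 0.17, adjusted p 1.59e-15). Of all 5367 genes tested, 3.37% rose, and the median log2 fold over them was -0.04. Gzmk had 19 UMIs in the NK gate, against 1 in the CD4 gate, a pooled ratio of 65.0 (10.3 to 2701). Prf1 had 18 UMIs in the NK gate, against 1 in the CD4 gate, a ratio of 61.6 (9.72 to 2566). With 7 and 4 UMIs in the CD8 and CD4 gates together, Gzmk and Prf1 reached the minimum of 20 UMIs for the fit only through the NK gate, so their calls in it are not read as support.

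Most Gzma UMIs of the CD4 gate sat in droplets that also held Ncr1. In Main1, 1 droplet with 31 and 1 with 26 Gzma UMIs made up most of the 62, and they held 6 and 8 Ncr1 UMIs, 12 and 9 Nkg7 UMIs, 11 and 8 NKp46 counts and no Cd3e UMI. Over both libraries, 4 CD4-gate droplets with Ncr1 held 63 of 75 Gzma UMIs. The other 290 droplets held 12 Gzma UMIs, 1 in each of 12 droplets.

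Against CD8 T cells the order was the same for Gzma, Gzmb and Nkg7. Nkg7 was at 4893 and 4410.2 CPM in the NK gate, against 987 and 1461 CPM in the CD8 gate, and rose by 1.66 (SE 0.17, adjusted p 7.82e-08 in edgeR's quasi-likelihood test). Gzma was at 11012 and 11978 CPM in the NK gate, against 21.9 CPM (1 UMI) and 1039.7 CPM (126 UMIs) in the CD8 gate, and rose by 3.86 (SE 0.37, adjusted p 4.14e-08). The CD8 gate differed between the libraries in monocyte markers too, at a summed 175 CPM in Main1 and 1989 CPM in Main2, and the part of those in the Gzma difference was not tested. The NK to CD8 ratio on the log2(CPM + 10) scale was 8.43 in Main1 and 3.51 in Main2. Gzmb was at 652 and 533 CPM in the NK gate, against 21.9 and 165 CPM in the CD8 gate, and rose by 2.03 (SE 0.39, adjusted p 0.000812). Of all genes tested 2.2% rose. DESeq2 did not call Gzma here (adjusted p 0.14).

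Gzmk and Prf1 were not called between NK and CD8 cells. Gzmk was at 65.2 and 113 CPM in the NK gate, against 43.9 and 33.0 CPM in the CD8 gate, a log2 fold of 1.21 (SE 0.75, adjusted p 0.54). Prf1 was at 91.3 and 88.8 CPM in the NK gate, against 43.9 and 8.25 CPM in the CD8 gate, a pooled ratio of 4.99 (1.46 to 26.5, adjusted p 0.33). The CD8 gate held 6 Gzmk and 3 Prf1 UMIs, which limits both values.

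Between the T gates, Nkg7 was higher in CD8 cells in both libraries. It was at 987 and 1461 CPM in the CD8 gate, against 206 and 186 CPM in the CD4 gate, and rose by 2.77 (SE 0.20, adjusted p 1.32e-09 in edgeR's quasi-likelihood test), where 0.354% of the 5367 genes rose. Gzmb was at 21.9 and 165 CPM in the CD8 gate, against 12.1 and 5.63 CPM in the CD4 gate, and rose by 3.78 (SE 0.68, adjusted p 0.00313), though not among droplets under 4000 UMIs (adjusted p 0.25). Gzma was at 21.9 and 1039.7 CPM in the CD8 gate, against 188 and 36.6 CPM in the CD4 gate, and its call (log2 fold 2.68, SE 0.52, adjusted p 0.0071) rested on Main2. The log2(CPM + 10) ratio was 4.49 in Main2 and -2.63 in Main1, and the call was lost without the replicate block (adjusted p 0.17). Gzmk (log2 fold 4.06, SE 1.21, adjusted p 0.19) and Prf1 (3.29, SE 1.53, adjusted p 0.56) did not pass, with 1 UMI each in the CD4 gate.

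B cells served as the cells without granules. Gzma was at 11012 and 11978 CPM in the NK gate, against 81.3 and 59.8 CPM in the B gate. Nkg7 was at 4893 and 4410.2 CPM in the NK gate, against 40.7 and 38.8 CPM in the B gate, where Gzmb, Gzmk and Prf1 were each under 2 CPM. In edgeR's quasi-likelihood test Gzma rose by 6.95 on the log2 scale (SE 0.16) and Nkg7 by 6.45 (SE 0.19), both past the adjusted threshold of 0.05, in the NK gate against the B gate, where 3.38% of the 10333 genes tested rose. Gzmb had 116 UMIs in the NK gate, against 15 in the B gate, Gzmk 19 against 6, and Prf1 18 against 11. These 3 reached 20 UMIs only through the NK gate, and their calls are not read as support. With library sizes as the only scaling the median of all genes moved to 0.09, against -0.32, and the calls to 612 higher and 378 lower, against 349 and 613. Gzma and Nkg7 stayed higher. The B-gate Gzma was not spread evenly either. The 79 B-gate droplets with an Ncr1 UMI held 617 of its 814 UMIs, and 191 of the 194 positive droplets without Ncr1 held exactly 1 UMI.

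Read as shares of droplets, the B gate sets the background. A Gzma UMI was found in 78.3% of NK droplets in Main1 and 78.5% in Main2, against 4.79% and 3.59% of B droplets. In the CD4 gate the Gzma share was 4.83% and 5.37%, which overlaps the B-gate background in its intervals (1.96 to 9.69 in Main1 and 2.35 to 10.3 in Main2). Nkg7 was found in 78.6% and 81.6% of CD8 droplets and 17.2% and 17.4% of CD4 droplets, against 3.15% and 3.97% of B droplets. Median depths over both libraries were 1526 UMIs in the NK gate, 2670.5 in the CD8 gate, 1971 in the CD4 gate and 1679.5 in the B gate. Thinned to 1100 UMIs per droplet, which left out 1 B droplet, Nkg7 remained in 93.5% and 89.2% of NK droplets, 57.1% and 63.2% of CD8 droplets, 12.4% and 10.1% of CD4 droplets, and 2.17% and 2.81% of B droplets. Thinned Gzma was in 0% and 13.2% of CD8 droplets and in 4.14% and 2.68% of CD4 droplets, against 2.91% and 2.33% of B droplets. The 0 of 14 CD8 droplets in Main1 allows up to 3 of 14 droplets, so its difference from Main2 was not detectable at this depth as a share.

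**Figure D4:**
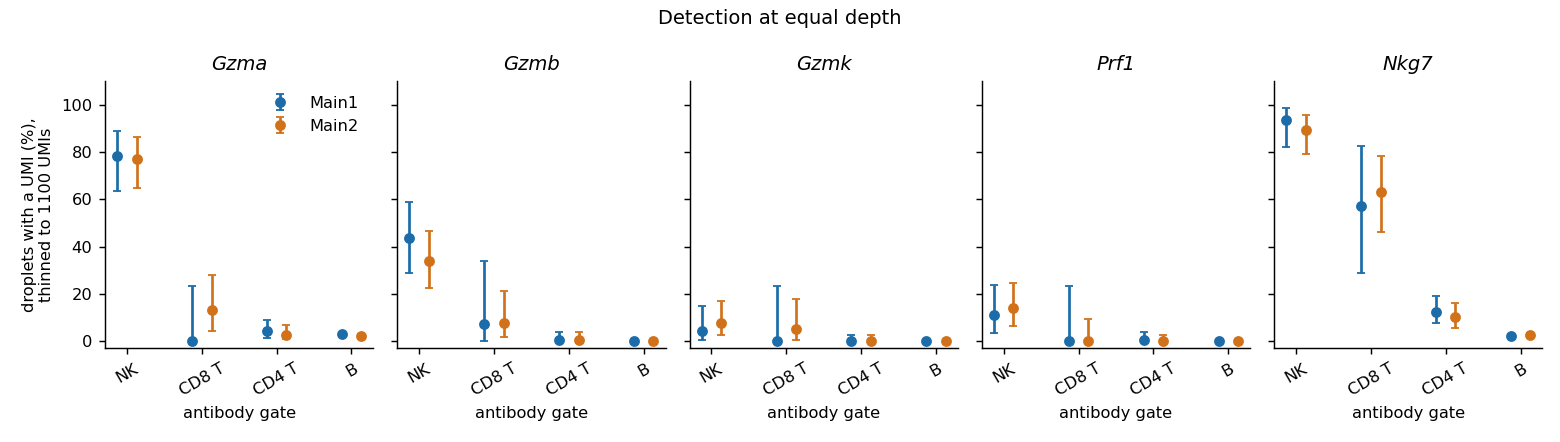
Percent of droplets with a UMI of each gene after thinning every droplet to 1100 UMIs, for the NK, CD8, CD4 and B gates in each library, with exact 95% intervals. Nkg7 steps down over the 4 gates, while Gzma is high in the NK gate and at most 13.2% elsewhere.

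CD44 is used as a marker of T cells that have met antigen, though antigen contact itself was not measured here. The upper and lower tertile of CD44 were compared in each T gate. In the CD8 gate the CD44-high class held Gzma and Gzmb, and the CD44-low class held neither. Gzma had 1 UMI in the 4 droplets of Main1 and 125 in the 14 droplets of Main2 in the CD44-high class, against 0 in the 2 and 16 droplets of the CD44-low class. Gzmb had 0 and 20 UMIs in the CD44-high class, against 0 and 0 in the CD44-low class. The exact interval of the CD44-high to CD44-low ratio, open upwards with 0 UMIs in the CD44-low class, began at 16.8 for Gzma and 2.47 for Gzmb. Both rose in edgeR's quasi-likelihood test (adjusted p 1.63e-08 and 0.0474), where 0.329% of the 3647 genes tested rose. Gzmb had only 6 UMIs in the rest of the fit, so it reached the minimum of 20 through the CD44-high CD8 class. Gzma had 42 there, 31 of them in 1 CD4 droplet that also held 6 Ncr1 UMIs. Without that droplet Gzma too would reach 20 only through the CD44-high CD8 class, so neither call is read as support. DESeq2 called 0 genes, with 65 at an unadjusted p under 0.05, and Gzmb lost its call in 7 alternatives that could test it. In the CD44-high class all 20 Gzmb UMIs and 125 of the 126 Gzma UMIs came from Main2. With library sizes as the only scaling the median of all genes in this comparison was 0.12, against 0.26.

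The Gzma of CD8 cells sat in few droplets. In Main2, 4 droplets held 57, 28, 26 and 7 Gzma UMIs, and the same droplets held 3, 5, 1 and 2 Gzmb, 11, 16, 6 and 10 Nkg7 and 119, 104, 130 and 130 UMIs of the chemokine Ccl5. Their depths were 2671, 5533, 5268 and 3375 UMIs, and they held 0, 1, 1 and 0 UMIs of the monocyte marker Lyz2 and 0 of Ccr2. All 4 had CD44 counts of 200 to 312, Cd3e and Cd8b1 UMIs, and neither an Ncr1 UMI nor an NKp46 count. CD44-high CD8 droplets were also deeper, with a median of 4107 UMIs, against 2180.5 in CD44-low droplets. Thinned to 1100 UMIs, Gzma was in 27.8% of the 18 CD44-high droplets and 0% of the 18 CD44-low droplets, and 0 of 18 allows a share of up to 16.7% (3 counts of 18).

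Nkg7 was present in both CD44 classes of CD8 cells. It was at 985 and 1761 CPM in the CD44-high class, against 482 and 923 CPM in the CD44-low class, a log2 fold of 1.03 (SE 0.47) that did not pass (adjusted p 0.86). The pooled ratio was 1.78 (1.22 to 2.65), and 13 of 18 CD44-low droplets held a Nkg7 UMI, or 9 of 18 once thinned, where the thinned B-gate share was 2.53%. Gzmk had 5 UMIs and Prf1 had 1 in the CD44-high class, against 0 in the CD44-low class, and neither was tested.

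In CD4 cells 3 of the 5 genes could be tested, and Nkg7 rose with CD44. Nkg7 was at 264 and 318 CPM in the CD44-high class, against 45.6 and 61.0 CPM in the CD44-low class, and rose by 2.31 (SE 0.58, adjusted p 0.00726 in edgeR's quasi-likelihood test), where 1.4% of the 3647 genes rose. The libraries were alike, at log2(CPM + 10) ratios of 2.30 in Main1 and 2.21 in Main2. A Nkg7 UMI was in 27 of 101 CD44-high and 7 of 99 CD44-low droplets, and in 17.8% and 3.03% of them once thinned, where the thinned B-gate share was 2.53%. Of 5 tested genes of the list of other granule genes, Cst7, which encodes the protease inhibitor cystatin F (3.96, SE 0.95, adjusted p 0.00417), and Srgn (1.43, SE 0.40, adjusted p 0.0301) also rose. The Nkg7 rise did not pass once droplets with Ncr1 or B-cell UMIs were left out, an alternative chosen after seeing the data (log2 fold 1.56, adjusted p 0.52).

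Gzma showed no stable CD44 difference in CD4 cells. It had 32 UMIs in Main1 and 4 in Main2 in the CD44-high class, against 3 and 3 in the CD44-low class, and 31 of the 32 came from 1 droplet, which also held 6 Ncr1 UMIs. The log2 fold was 1.82 (SE 0.70, adjusted p 0.28) and was -1.07 (adjusted p 0.95) without the top droplet of each gate, again chosen after seeing the data. Gzmb had 4 and 2 UMIs in the CD44-high class, against 0 and 0 in the CD44-low class, a ratio whose interval began at 0.722, and did not pass (adjusted p 0.58). Whether the CD44 difference itself was larger in CD8 than in CD4 cells was tested by an interaction term. Of the 3647 genes 0.0548% were called in edgeR's quasi-likelihood test. Of the 3 granule genes in the fit 0 passed, with 1 (Gzma) at an unadjusted p under 0.05 and 0 called by DESeq2. Gzmb had 0 UMIs in the CD44-low class of both T gates. Its term could not be estimated (SE 27746), so its result is no evidence of an equal difference. With library sizes as the only scaling the median of all genes in this term was 0.04, against 0.34. The Gzma difference was 7.80 on the log2 scale (SE 2.44, adjusted p 0.60) and passed without the top droplet of each gate (adjusted p 0.025) and in 3 other alternatives.

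**Figure D5:**
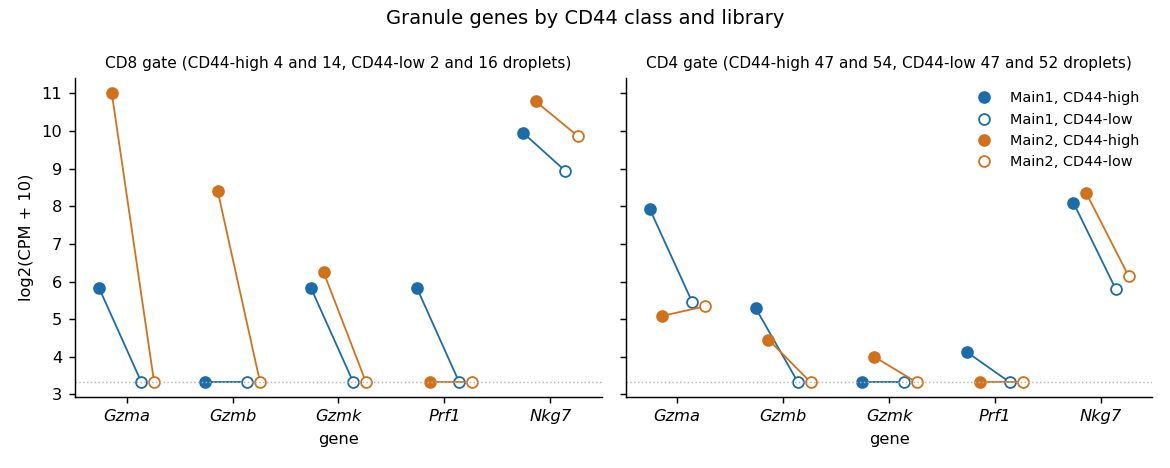
Level of each gene as log2(CPM + 10) in CD44-high (filled) and CD44-low (open) droplets of the CD8 and CD4 gates, a line for each library, with 4 and 14 CD44-high and 2 and 16 CD44-low CD8 droplets. In the CD8 gate Gzmb leaves the dotted line of 0 UMIs only in Main2 CD44-high cells. Gzma leaves it there and, with 1 UMI, in Main1 CD44-high cells. Nkg7 is higher in the CD44-high class in both gates and libraries.

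Lists of genes that act with the granule proteins were read in the same fits. A list gene that reached 20 UMIs only through the NK gate was biased towards a rise. The counts of NK against T cells are therefore also given without such genes. Of 16 other granule genes, 10 could be tested, and 5 rose in NK against CD4 cells while 0 fell, where 3.37% of all genes rose and 4.9% fell. Of the 6 with at least 20 UMIs outside the NK gate, 2 rose, the granule proteases cathepsin W (Ctsw, 2.51) and cathepsin C (Ctsc, 1.91), the activator of granzymes. The others that rose were the serpin Serpinb9b, with 9 and 13 UMIs in the NK gate against 0 and 0 in the CD4 gate, Serpinb6b (3.77, SE 0.42) and the granzyme B inhibitor Serpinb9 (3.06, SE 0.46). Srgn, the proteoglycan that packs the granule, did not pass (-0.22, adjusted p 0.70). Gzmc, Gzmd, Gzme, Gzmf, Gzmg and Gzmn were not analysed here. Of the release machinery, 2 of 7 tested genes rose, the synaptotagmin-like Sytl3 (4.79) and the syntaxin Stx11 (2.41), and 0 of the 5 with at least 20 UMIs outside the NK gate. All 6 tested transcription factors of cytotoxic cells rose, 3 of them with at least 20 UMIs outside the NK gate. Eomes (5.04, SE 0.52), Zeb2 (4.72, SE 0.41) and Tbx21 (3.33, SE 0.53) had the largest folds, and of these Zeb2 had at least 20 UMIs outside. All 5 tested effector ligands rose, among them the chemokines Ccl4 (5.93) and Ccl5 (5.26), the 2 with at least 20 UMIs outside the NK gate, Xcl1 (5.44) and Ccl3 (5.29). Of 8 naive T-cell genes 5 fell: Ccr7 (-3.91), Tcf7 (-3.57), Lef1 (-2.40), and Igfbp4 and Dapl1, which had 0 UMIs in the NK gate.

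The same lists were read against CD8 cells, where 2.2% of all genes rose. Serpinb9b, at 0 UMIs in the CD8 gate, and Serpinb6b (2.35, SE 0.50) were the 2 of 10 granule genes that rose, Sytl3 (3.20) the 1 of 7 of the release machinery, and Tbx21 (4.26), Zeb2 (2.48), Eomes (2.41) and Id2 (1.78) the 4 of 6 transcription factors. All 5 ligands rose, with Ccl3 at 0 UMIs in the CD8 gate. With at least 20 UMIs outside the NK gate, 0 granule and 0 release genes, 2 of 3 transcription factors and 2 of 2 ligands rose. Between CD8 and CD4 cells Ctsw (1.89) was the 1 of 10 granule genes that rose, beside Ccl5 (3.15), and 0 of 6 transcription factors passed. With library sizes as the only scaling, the median of all genes in NK against CD8 cells moved to 0.23, against 0.03, and the calls to 207 higher and 152 lower, against 118 and 163. Within the NK gate, 1.87% of the 1499 genes tested rose in CD11b-high droplets. Of the lists, 2 of 7 granule genes rose (Serpinb9b and Serpinb9, 1.90), 1 of 6 transcription factors (Zeb2, 1.87) and 2 of 5 ligands (Ccl4, 2.25, and Ccl5, 1.43). Serpinb9b and Serpinb9 had 22 and 33 UMIs in the NK gate, reached 20 only through the CD11b-high class and are no support. In CD27-high droplets 1.67% of genes fell, among them 1 of 6 transcription factors (Zeb2, -1.19) and 1 of 5 ligands (Ccl4, -2.29).

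Over 21 gate-by-library sums, the genes whose level went most like that of Gzma were Gzmb (Pearson r 0.92), Eomes (0.92) and the NK receptor gene Klrc1 (0.91), among 8779 genes with at least 100 UMIs. Gzmb was closest to Samd3 (0.94) and Gzma, Prf1 to the receptor gene Klrc2 (0.94) and Samd3 (0.94), and Gzmk to Samd3 (0.91) and Klrc1 (0.91). Nkg7 was closest to Ifitm10 (0.96), Ctsw (0.96) and the interleukin-2 receptor chain Il2rb (0.93). Among the 5 genes themselves, the r with Gzma was 0.86 for Nkg7, 0.80 for Gzmk and 0.79 for Prf1, and that of Gzmk with Prf1 was 0.93. Gzmk and Prf1 had 65 and 48 UMIs over all droplets, below the minimum of 100 set for other genes, so their values rest on few UMIs. The sums share libraries and depth, and these values are a description.

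Outside the NK, CD8 and CD4 gates, Nkg7 was the member seen most widely. Droplets positive for both CD4 and CD8a held it at 548 CPM in Main1 and 559 CPM in Main2, in 126 of 172 droplets, with Gzma in 9 of them. Those droplets were deep, with a median of 4249.5 UMIs, no doublet caller was run, and the part of droplets with several cells was not tested. T droplets negative for both had Nkg7 at 1379 CPM in the 3 droplets of Main1 and 1289 CPM in the 11 of Main2, with Gzma at 0 and 78.1 CPM. That gate held more erythroid RNA in Main1 and neutrophil RNA in Main2 than T-cell marker RNA, and their part was not tested. The ungated rest held Gzma at 601 and 952 CPM and Nkg7 at 573 and 853 CPM, and 13 of its 202 droplets with an Ncr1 UMI carried 291 of its 380 Gzma UMIs. In the monocyte gate, 2 droplets with Ncr1 held 47 of 48 Gzma UMIs. The dendritic gate had Gzma at 296 CPM in Main1, with 28 of 31 UMIs in 4 droplets with Ncr1, and at 0 CPM in Main2. Neutrophil, macrophage and erythroid gates had Gzma between 4.89 and 25.6 CPM in each library and no UMI of Gzmk or Prf1.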

How the data were processed

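CITE-seq tables of spleen droplets were read as deposited by the authors: whole-number UMI counts per gene and antibody counts per droplet, with no normalization. Per the submitters' processing notes, bcl2fastq, Cell Ranger 3.0.2 and mm10 were used. Gene identifiers were named from GENCODE vM21 (11682 of 11713). Antibody-positive droplets had a posterior above 0.5 in a 2-component Gaussian mixture of the centred log-ratio of each of 30 antibodies (scikit-learn 1.9.0), and the NK gate also needed 5 NKp46 counts. UMIs were summed per gate and library. edgeR 4.0.16 (R 4.3.3) tested genes with at least 20 UMIs per fit by quasi-likelihood, with the library as replicate block, TMM scaling and Benjamini-Hochberg adjustment at 0.05 over all genes. DESeq2 1.42.0 was an alternative. Both gates of a comparison come from the same libraries, which is where the pairing comes from. The NK, CD8 and CD4 gates shared a fit with 2 residual degrees of freedom. The CD44 classes had 3, and the B, CD27 and CD11b comparisons 1 each. In the main fit of the NK, CD8 and CD4 gates most of the estimated spread thus came from other genes. In the other main fits the prior degrees of freedom were infinite, so it came wholly from the trend over genes. A gene's own difference between the libraries did not enter its spread there. The script was tested on simulated data. No doublet caller was run. The genes, lists and tests were chosen with earlier results of these data known. Always named were the 5 genes, and from each list up to 6 called genes with the largest folds.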

Additional observations from a re-analysis of the deposited data

Results flagged for a closer look

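Gzma in the CD8 gate against the CD4 gate went opposite ways in the libraries, at a log2(CPM + 10) ratio of -2.63 in Main1 and 4.49 in Main2. This difference between libraries was not tested.

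Signal above the B-gate level was also seen in gates that no comparison used. Nkg7 was at 554 CPM in droplets positive for CD4 and CD8a, 1307 CPM in T droplets negative for both and 396 CPM in droplets positive for T and B antigens, where Gzmk was at 10.3 CPM. The T droplets negative for both held much marker RNA of other cell types. In the monocyte gate Gzma was at 458 CPM, with 56.2% of its UMIs in 1 droplet. In ungated droplets Gzma was at 756 CPM, Gzmb at 51.7 CPM and Nkg7 at 696 CPM.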

How the results depend on the processing

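Of the 5 genes, 5 were called in NK against CD4 cells and 3 with a minimum of 50 UMIs, with at least 10 NKp46 counts, or without droplets holding UMIs of another type. At a minimum of 50 UMIs or at 10 NKp46 counts, Gzmk and Prf1 had too few UMIs to be tested. NK against B cells gave 5 calls and 3 with a minimum of 50 UMIs, which Gzmk and Prf1 again did not reach. CD44 in CD4 cells gave 1 call, 2 under 4000 UMIs, with CD44 split at its median or as a share of antibody counts, and 0 without droplets holding UMIs of another type. CD44 in CD8 cells gave 2 calls and 0 with DESeq2. It gave 1 with a minimum of 50 UMIs, no filter, no replicate block, under 4000 UMIs, CD4 or CD8a by more counts, tertiles within each library, a split at the median, without droplets of another type, and without the top droplets. The interaction gave 0 calls and 1 with log-ratios within droplets, CD4 or CD8a by more counts, and without droplets of another type or the top droplets. CD27 gave 2 calls, 1 with DESeq2 size factors or under 4000 UMIs, and 0 with library sizes only, DESeq2, no filter, no replicate block, log-ratios within droplets, 3 or 10 NKp46 counts, and without the top droplets. CD11b gave 3 calls and 1 with DESeq2, no filter or 10 NKp46 counts. Gzma in CD8 against CD4 cells ranged from -2.63 without replicate 2 to 4.49 without replicate 1. Alternatives that left out droplets of another type or the top droplets were chosen after seeing the data. Other causes of these changes were not tested.

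Without the replicate block the calls among the 5 genes were 5 for NK against CD4, 3 for NK against CD8, 2 for CD8 against CD4, 1 for CD44 in CD4, 1 for CD44 in CD8, 0 for the interaction, 5 for NK against B, 0 for CD27 and 2 for CD11b.

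Over all genes, NK against CD4 cells gave 444 calls in edgeR and 193 in DESeq2. NK against CD8 cells gave 281, 174 in DESeq2, 430 with CD4 or CD8a by more counts and 186 without droplets of another type. CD8 against CD4 cells gave 33, between 15 (DESeq2) and 91 (log-ratios within droplets). CD44 in CD4 cells gave 66, 9 in DESeq2, 43 with no filter and 37 without droplets of another type. CD44 in CD8 cells gave 12, between 0 (DESeq2) and 25 (log-ratios within droplets), and the interaction 2, between 0 (DESeq2, 30 at an unadjusted p under 0.05) and 17 (log-ratios within droplets). NK against B cells gave 962, 443 in DESeq2 and 548 with 10 NKp46 counts. CD27 gave 41, between 0 (DESeq2, and 10 NKp46 counts) and 64 (3 NKp46 counts), and CD11b 54, between 1 (DESeq2) and 242 (3 NKp46 counts). With library sizes only, the median of all genes moved to 0.10, against -0.04, in NK against CD4 cells and to 0.12, against -0.01, for CD44 in CD4 cells.

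Calls of genes that reached 20 UMIs only through the NK gate (Gzmk and Prf1 against CD4 cells, and Gzmb, Gzmk and Prf1 against B cells) or only through CD44-high CD8 cells (Gzmb) are in these counts and are no support. The Gzma calls by CD44 in CD8 cells and in the interaction are no support either. In that fit 1 CD4 droplet with Ncr1 held most Gzma UMIs outside the CD44-high CD8 class. The 2 libraries, 52 CD8 droplets and 19 Gzmk and 18 Prf1 UMIs in the NK gate limit what could be detected.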
